A study of Homo sapiens with 8 samples.

Results

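Blood cells build their actin cytoskeleton with a set of proteins whose genes are otherwise mostly silent in epithelial tissue. The 10 genes described here encode such leukocyte-type regulators of actin, small GTPases and integrins: LCP1, CORO1A, HCLS1, LSP1, RAC2, ARHGDIB, WAS, APBB1IP, FERMT3 and PLEK. They were found by symbol among the 61552 genes of the deposited count and FPKM tables (FPKM is a level normalised to gene length and library size). All 10 were present there, and 7 had enough reads to enter the test over 15923 genes. The genes were picked with results of these libraries already known, and which comparison guided the choice is not recorded. Their own differences are therefore given as a description, with no p-value printed. Whether a member passed the threshold of the test (called, below) is part of that description, and nothing is supported with it. Tests with p-values are given for genes outside the set, but their lists were also drawn up with earlier results of these data known. The counts and p-values of those lists are therefore not free of that choice.

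The libraries came from MDA-MB-231, a triple-negative human breast cancer cell line with mesenchymal features, and from its derivative MDA231-LM2, called LM2 here, which was selected for metastasis to the lung. There were 4 groups of 2 libraries, numbered 2 and 3 in the labels. They were MDA-MB-231 with a control hairpin (labelled WT), MDA-MB-231 with hairpin 3 against TAF7 (labelled TAF7 knockdown), and LM2 with each of the same hairpins. TAF7 is part of TFIID, the complex that recognises core promoters for RNA polymerase II. Whether the libraries of a group came from separate cultures, and whether the hairpin lines were clones or pools, is not stated, so the spread between libraries may be technical. MDA-MB-231 is also called the parental line below. All 4 groups grew in the same serum-containing medium. The same hairpin against TAF7 was used in both lines. What is called a knockdown effect below therefore cannot be told apart from other effects of that hairpin, or from differences between the derived hairpin lines.

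Actin filaments are nucleated by the Arp2/3 complex, which WASP and WAVE proteins switch on downstream of small GTPases such as RAC1 and RAC2. Filaments are then bundled by plastins and bound or remodelled by coronins, cortactins and related proteins. Adhesion is coupled to this network when the adaptor RIAM and the kindlins help talin to activate integrins. Leukocytes use their own version of many of these proteins, while other cells use a widely expressed relative, for example PLS3 in place of LCP1 or FERMT2 in place of FERMT3.

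Library totals ran from 17217776 to 20292291 counts in genes. Both LM2 control libraries detected more genes (24490 and 24762) than the other 6 (22296 to 23434), and the part of this in the results was not tested. TAF7 itself was at 60.2 and 61.8 FPKM in the parental control and at 35.4 and 35.2 after knockdown, and at 66.5 and 67.4 FPKM in the LM2 control and 45.1 and 45.8 after knockdown. With the TAF7 hairpin it was higher in LM2 than in the parental line (by 0.45 ± 0.07 on the log2 scale, edgeR adjusted p = 1.51e-07). The comparison of the lines with that hairpin is therefore between unequal TAF7 levels. TAF7 also fell less in LM2, and its interaction between line and knockdown was called, but not without MDA-MB-231 control replicate 3 (0.33). Differences between the knockdown effects below are thus between knockdowns of unequal depth, and the part of this was not tested. VIM, the mesenchymal filament protein vimentin, was abundant in every group. CDH1, ESR1, PGR and KRT5, which mark epithelial, hormone-responsive or basal cells, had at most 5 counts in any library. So had CDH2, apart from 7 counts in 1 LM2 control library. Other epithelial or luminal markers of the same list were read: KRT18, EPCAM, ERBB2 and GATA3 averaged at least 5 CPM. In all, 8 of the 13 listed markers of the breast cancer line were tested. Of 26 genes that define leukocytes, platelets or red cells, 20 had at most 10 counts in every library and 9 had none in all 8 (among them CD48, ITGAL, CD2, MS4A1, TYROBP, PPBP, PF4 and HBB). PTPRC, which encodes the pan-leukocyte surface protein CD45, reached 5 counts. The summed level of the 26 genes was 149.2 to 173.3 CPM (counts scaled to library size, with no length term) in the MDA-MB-231 libraries and 96.9 to 114.7 CPM in LM2. Most of this was LAPTM5, a lysosomal membrane protein, with 17501 counts over the 8 libraries. ITGB2 followed with 1371 counts, of which 334 and 353 were in the LM2 control, beside 1549 and 1633 of LAPTM5 there. The part of these markers in the results was not tested.

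The 10 genes covered a wide range of levels, shown in the plot of FPKM by library. Across all libraries ARHGDIB ran from 113.9 to 255.8 FPKM and RAC2 from 55.4 to 96.0 FPKM. LCP1 ran from 4.51 to 40.6 FPKM and APBB1IP from 0 to 22.8 FPKM. HCLS1 (43 to 279 counts), FERMT3 (0.54 to 1.08 FPKM) and CORO1A (0.42 to 0.78 FPKM) were low. WAS reached 0.25 FPKM, PLEK 0.07 FPKM and LSP1 0.03 FPKM. In these bulk libraries a low level spread over all cells and a high level in a few cells cannot be told apart.

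**Figure D1:**
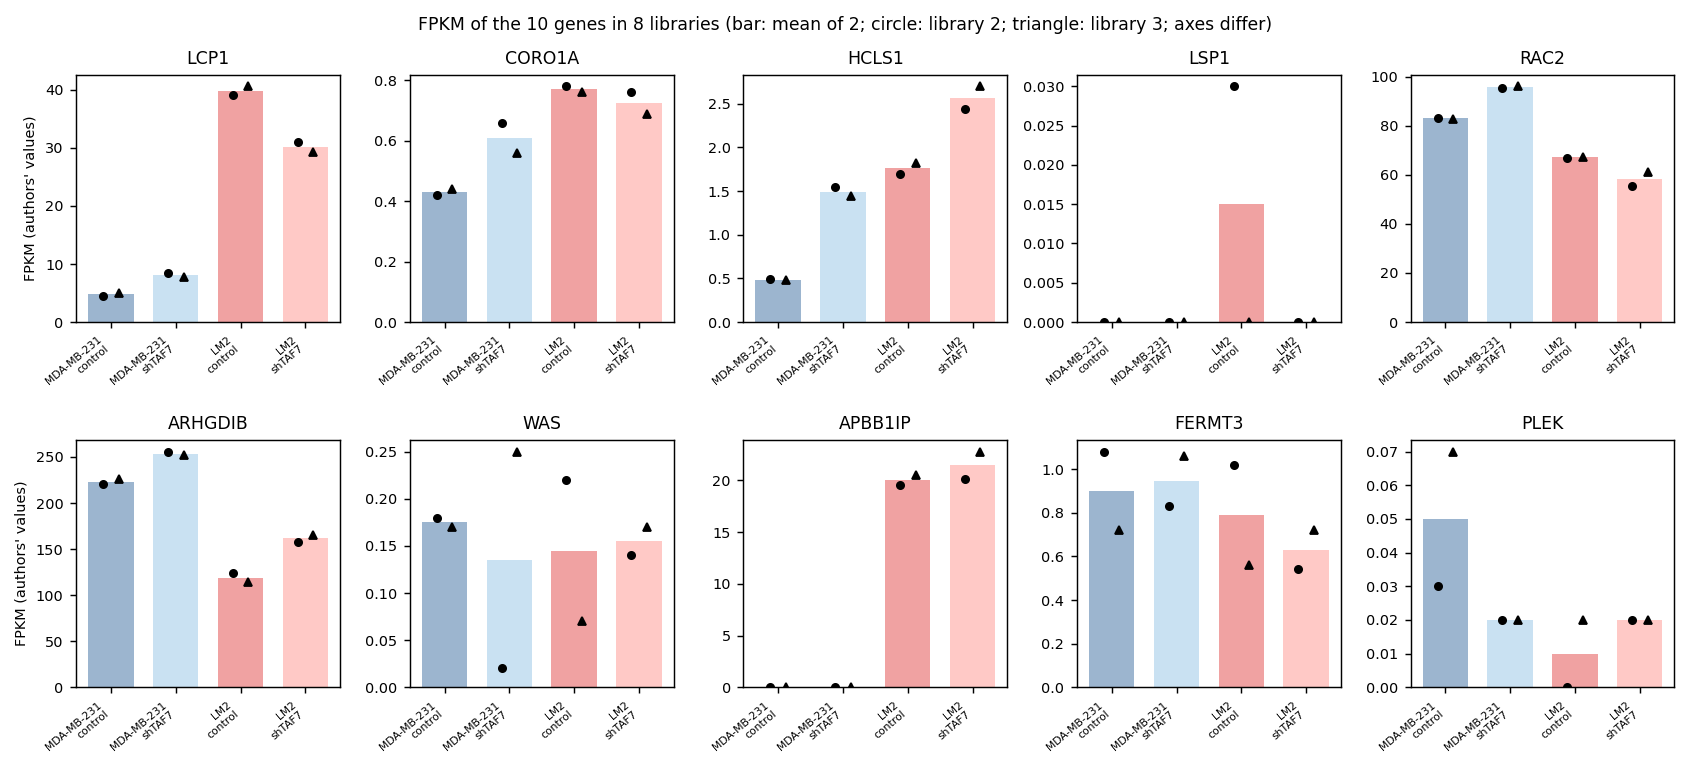
FPKM (vertical axes, which start at 0 and differ between panels) of each of the 10 genes in the 4 groups on the horizontal axis. Bars are means of 2 libraries, circles library 2 and triangles library 3. APBB1IP is at or next to 0 in the 4 MDA-MB-231 libraries and at 19.5 to 22.8 in the 4 LM2 libraries, LCP1 and HCLS1 are highest in LM2, and ARHGDIB and RAC2 are highest in MDA-MB-231.

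Among the integrin regulators, APBB1IP separated the lines almost completely. It encodes RIAM, the adaptor that links the small GTPase RAP1 to talin. It had 0 and 0 counts in the parental control and 1 and 0 after TAF7 knockdown. It had 1324 and 1363 counts in the LM2 control and 1444 and 1777 in LM2 shTAF7. Thus 1 read was seen in the 4 MDA-MB-231 libraries together, and the groups of the lines did not overlap. A floor of 3 counts in a library corresponds to 0.156 and 0.168 CPM in the parental control, so the LM2 control level of 74.4 ± 2.17 CPM (SD, n = 2) was at least 459.6-fold higher. With the TAF7 hairpin the ratio of LM2 to MDA-MB-231 was 3291, with an exact 95% counting interval of 590.2 to 130009 that covers counting error only. Knockdown in LM2 gave 87.2 ± 9.35 CPM (log2 fold change 0.23 ± 0.08, a standard error derived from the test statistic of the edgeR fit). That value was called, meaning a Benjamini-Hochberg adjusted p under 0.05 in edgeR's quasi-likelihood fit, but not without LM2 control replicate 2 (log2 fold change 0.20) or LM2 shTAF7 replicate 3 (log2 fold change 0.14), nor with DESeq2 (log2 fold change 0.24) or limma on log2(FPKM + 1) (log2 fold change 0.09).

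The level of RAPH1, which encodes lamellipodin, the widely expressed relative of RIAM, was low in all groups. It was at 0.45 and 0.58 FPKM in the parental control, 0.29 and 0.25 after knockdown, 0.78 and 0.87 in the LM2 control and 0.41 and 0.52 in LM2 shTAF7. RAPH1 fell with TAF7 knockdown in both lines (log2 fold changes of -0.92 ± 0.20 in the parental line and -0.70 ± 0.17 in LM2, edgeR adjusted p = 0.000522 and 0.001). The parental value was -0.25 and not called by limma on log2(FPKM + 1), and neither line was called by limma on log2(FPKM + 0.1) (-0.73 and -0.72). In GENCODE 29, 75.8% of its exonic bases are shared with ABI2 on the other strand, so its level is uncertain. Of the summed FPKM of the pair, APBB1IP held 95.9% to 98.0% in the 4 LM2 libraries.

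The genes whose log2 CPM over the 8 libraries was most like that of APBB1IP, among 10746 other genes averaging 5 CPM or more, were C6orf132, RNF130 and CPPED1 (Pearson r of 0.9998, 0.9998 and 0.9997 over 8 libraries in 4 groups, so the likeness rests mainly on the line). C6orf132 and CPPED1 had group means of 0 CPM in the parental control and of 17.2 and 34.0 CPM in the LM2 control. RNF130 was present in both lines, at 19.4 and 45.4 CPM.

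The RefSeq promoter windows (250 bases before to 50 after an annotated start, build GRCh38.p14) of 8 of the 10 genes matched by symbol. RAC2 and LSP1 did not match. They are not read from the hg19 build that the submitters' processing notes name. Those of APBB1IP, LCP1 and HCLS1, which differed more than CORO1A among the 4 members called higher in LM2 with the control hairpin, and of ARHGDIB, which was highest in MDA-MB-231, are shown in the paragraphs on each gene so that windows of genes with opposite line differences can be compared. Capitals mark matches on either strand to 6 short motifs: the TATA box TATAAA, the GC box GGGCGG, the AP-1 motif TGACTCA, the ETS motif CCGGAA, the PU-box GAGGAA and the RUNX motif TGTGGT. Matches do not overlap one another in the windows printed. Of 35116 RefSeq windows of the same length, 11.5%, 45%, 4.95%, 17.2%, 27.9% and 13.1% hold them, in that order. A match is only a run of letters in the window. The APBB1IP window lies at chr10:26438091-26438390 on the + strand and has 62.3% G and C. It holds 2 GC boxes and 2 PU-box matches.
APBB1IP: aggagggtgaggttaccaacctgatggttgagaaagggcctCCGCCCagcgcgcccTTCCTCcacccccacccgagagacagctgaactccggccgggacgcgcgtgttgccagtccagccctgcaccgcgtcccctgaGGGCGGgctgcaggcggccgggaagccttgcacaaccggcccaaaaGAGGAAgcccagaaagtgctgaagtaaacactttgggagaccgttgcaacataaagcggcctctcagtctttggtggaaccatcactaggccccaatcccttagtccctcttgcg

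FERMT3 encodes kindlin-3, which activates integrins in blood cells. It had 63 and 39 counts in the parental control, 44 and 66 after knockdown, 55 and 30 in the LM2 control and 31 and 45 in LM2 shTAF7. The libraries of 1 group differed as much as the groups, and all neighbouring groups overlapped. Its log2 fold change was 0.09 ± 0.27 with knockdown in MDA-MB-231, -0.19 ± 0.30 with knockdown in LM2, and -0.22 ± 0.29 and -0.50 ± 0.29 between the lines with control and TAF7 hairpin. None of these was called. FERMT3 held 2.06% to 4.18% of the summed FPKM of the 3 kindlins. FERMT2, kindlin-2, made up most of it, at 27.8 and 27.8 FPKM in the parental control and 20.4 and 19.2 after knockdown. FERMT2 fell with knockdown in both lines (-0.47 ± 0.07 and -0.23 ± 0.07, edgeR adjusted p = 8.91e-07 and 0.00482), though in LM2 it was -0.16 and not called without LM2 shTAF7 replicate 3. FERMT1, the epithelial kindlin-1, was lower in LM2 than in MDA-MB-231 with both hairpins (-1.15 ± 0.10 and -0.57 ± 0.10, edgeR adjusted p = 1.11e-13 and 4.64e-06).

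PLEK encodes pleckstrin, a substrate of protein kinase C in platelets and leukocytes. It had 2 and 4 counts in the parental control, 1 and 1 after knockdown, 0 and 1 in the LM2 control and 1 and 1 in LM2 shTAF7. Every group mean was at or under the floor of 3 counts a library, so no fold is given. PLEK2, its relative in many tissues, was at 24.6 and 26.4 FPKM in the parental control, 34.4 and 35.2 after knockdown, 24.2 and 21.6 in the LM2 control and 31.8 and 34.0 in LM2 shTAF7. PLEK2 rose with knockdown in both lines (0.47 ± 0.08 and 0.65 ± 0.08, edgeR adjusted p = 2.78e-05 and 1.62e-08).

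Among the filament-binding genes, LCP1, which encodes L-plastin, the actin-bundling protein of leukocytes, was far higher in LM2. It was at 4.51 and 5.06 FPKM in the parental control and at 8.51 and 7.72 after knockdown. It was at 39.1 and 40.6 FPKM in the LM2 control and at 31.0 and 29.3 in LM2 shTAF7. No group overlapped with another. The LM2 control was 8.17-fold above the parental control (log2 fold change 3.03 ± 0.08), and with the TAF7 hairpin LM2 was 3.94-fold above (1.98 ± 0.08). Knockdown moved LCP1 up in the parental line (log2 fold change 0.78 ± 0.09) and down in LM2 (-0.27 ± 0.07). The difference between these effects was -1.05 ± 0.11.

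LCP1 has a pair of relatives, PLS1 of brush borders and PLS3 of many tissues. LCP1 held 5.28% and 5.80% of the summed plastin FPKM in the parental control, 10.4% and 10.1% after knockdown, 33.4% and 35.0% in the LM2 control and 24.0% and 23.8% in LM2 shTAF7. PLS3 was at 66.3 and 67.4 FPKM in the parental control and at 66.8 and 64.2 in the LM2 control, where its log2 difference between the lines was -0.06 ± 0.07 (edgeR adjusted p = 0.483). Knockdown moved PLS3 the other way from LCP1 in LM2, to 88.1 and 83.2 FPKM (0.51 ± 0.07, edgeR adjusted p = 2.9e-08), and its interaction between line and knockdown was 0.71 ± 0.10 (edgeR adjusted p = 1.18e-07). In MDA-MB-231 the log2 fold change of PLS3 was -0.20 ± 0.07 (edgeR adjusted p = 0.0253). It was not called without MDA-MB-231 control replicate 2 (-0.22), control replicate 3 (-0.19) or shTAF7 replicate 3 (-0.13). PLS1 was lower in LM2 with both hairpins (-0.44 ± 0.07 and -0.27 ± 0.07, edgeR adjusted p = 1.12e-06 and 0.0017). The genes with the pattern most like LCP1 over the 8 libraries were ZBTB38, PARP3 and PPP2R5B (Pearson r of 0.999, 0.999 and 0.998). PARP3 had group means of 13.4, 17.5, 36.8 and 34.1 CPM in the order MDA-MB-231 control, MDA-MB-231 shTAF7, LM2 control and LM2 shTAF7.

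The LCP1 window lies at chr13:46182128-46182427 on the - strand. It has 42.7% G and C and holds 2 TATA box letter runs, of which the nearer begins 97 bases before the start, with 1 match each to the PU-box, the GC box and, on the reverse strand, the RUNX motif. It is shown because LCP1 had the widest spread between groups of the members read in every library.
LCP1: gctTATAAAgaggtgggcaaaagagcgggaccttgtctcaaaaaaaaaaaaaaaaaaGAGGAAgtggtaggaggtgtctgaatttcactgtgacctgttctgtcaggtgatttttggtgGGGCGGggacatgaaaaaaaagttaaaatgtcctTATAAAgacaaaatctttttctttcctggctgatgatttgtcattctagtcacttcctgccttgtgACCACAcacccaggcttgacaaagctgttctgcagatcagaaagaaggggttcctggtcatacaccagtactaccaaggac

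HCLS1 encodes HS1, the cortactin relative of blood cells, which stabilizes Arp2/3 branches. It had 47 and 43 counts in the parental control and 136 and 149 after knockdown, 153 and 160 in the LM2 control and 232 and 279 in LM2 shTAF7. All 4 groups stood apart, with the parental control lowest and LM2 shTAF7 highest. Knockdown raised its CPM 3.13-fold in MDA-MB-231 (log2 fold change 1.64 ± 0.19) and 1.60-fold in LM2 (0.68 ± 0.14). LM2 was 3.58-fold above MDA-MB-231 with the control hairpin (1.83 ± 0.19) and 1.82-fold with the TAF7 hairpin (0.87 ± 0.14). The difference between the knockdown effects was -0.97 ± 0.24, but it was -0.38 and not called with limma on log2(FPKM + 1). CTTN, cortactin itself, stayed between 36.0 and 39.9 FPKM in all 8 libraries, and none of its 4 group comparisons was called (log2 fold changes of -0.10 to 0.07, edgeR adjusted p of 0.192 to 0.398). HCLS1 held 1.19% and 1.22% of the summed FPKM of the pair in the parental control and 6.25% and 6.91% in LM2 shTAF7. The genes with the pattern most like HCLS1 were TMEM158, TOR2A and ATP5IF1 (Pearson r of 0.991, 0.990 and 0.989 over 8 libraries). TMEM158 had group means of 19.4, 48.2, 67.0 and 98.6 CPM in the same order of groups as above.

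The HCLS1 window, at chr3:121660854-121661153 on the - strand, has 45.3% G and C and no match to the TATA, GC, ETS, PU or RUNX letters. It holds 1 AP-1 match that begins 91 bases before the start. It is shown beside that of LCP1 because both genes were higher in LM2 and rose with knockdown in MDA-MB-231.
HCLS1: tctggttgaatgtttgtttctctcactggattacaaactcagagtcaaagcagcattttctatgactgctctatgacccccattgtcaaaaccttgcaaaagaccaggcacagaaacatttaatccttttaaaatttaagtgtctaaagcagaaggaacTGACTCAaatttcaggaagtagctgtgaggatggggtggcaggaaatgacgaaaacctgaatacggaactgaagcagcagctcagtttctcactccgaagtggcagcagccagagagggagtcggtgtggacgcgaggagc

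CORO1A encodes coronin-1A, which binds filaments and Arp2/3 in lymphocytes. It had 38 and 37 counts in the parental control, 54 and 54 after knockdown, 66 and 63 in the LM2 control and 68 and 67 in LM2 shTAF7. Both LM2 groups were above both MDA-MB-231 groups, and the LM2 groups overlapped. The line difference was 1.77-fold with the control hairpin (log2 fold change 0.82 ± 0.25, or 0.80 and not called with DESeq2) and 0.35 ± 0.23 with the TAF7 hairpin. Knockdown gave 0.51 ± 0.26 in MDA-MB-231 and 0.04 ± 0.23 in LM2. In GENCODE 29, 11.1% of its exonic bases are also exon of a gene on the other strand, and the strand setting of the counts is not given, so reads of the pair cannot be told apart. CORO1A held 0.563% to 0.893% of the summed coronin FPKM. CORO1C, a coronin of most tissues, was at 50.6 and 50.2 FPKM in the parental control and 77.2 and 84.6 in the LM2 control (0.65 ± 0.07, edgeR adjusted p = 1.19e-11). CORO1B was also higher in LM2 with both hairpins and rose with knockdown in both lines (0.38 ± 0.07 in MDA-MB-231 and 0.33 ± 0.07 in LM2, edgeR adjusted p = 5.74e-05 and 0.000132), though 24.3% of its exonic bases are shared with PTPRCAP in GENCODE 29.

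LSP1, which encodes the leukocyte-specific actin-binding protein 1, had 3 counts in 1 LM2 control library and 0 in the other 7. Its named pseudogene LSP1P4 had 58 to 96 counts in each library, and reads that fit both could have been split or dropped by the counting. No fold is given for LSP1.

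Of the GTPase-pathway genes, ARHGDIB was the most abundant of the 10 in every library. It encodes a GDP-dissociation inhibitor, which keeps small GTPases inactive in the cytosol. It was at 220.7 and 226.0 FPKM in the parental control, 255.8 and 251.6 after knockdown, 124.4 and 113.9 in the LM2 control and 158.1 and 165.3 in LM2 shTAF7. The 4 groups did not overlap. The LM2 control was at 52.3% of the parental control (log2 fold change -0.93 ± 0.07), and LM2 shTAF7 at 67.6% of MDA-MB-231 shTAF7 (-0.57 ± 0.07). Knockdown raised it in LM2 (0.57 ± 0.07). In MDA-MB-231 its value of 0.20 ± 0.07 was called, but not without MDA-MB-231 control replicate 2, control replicate 3 or shTAF7 replicate 2 (log2 fold changes of 0.18, 0.21 and 0.17).

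ARHGDIB made up more of the summed FPKM of the 3 inhibitors than its relatives in all 8 libraries, from 61.9% in an LM2 control library to 75.9% in an MDA-MB-231 shTAF7 library. ARHGDIA, its ubiquitous relative, was at 83.6 and 83.1 FPKM in the parental control and 62.7 and 70.2 in the LM2 control. It was lower in LM2 with the control hairpin (-0.36 ± 0.07, edgeR adjusted p = 4.42e-05) and rose with knockdown in LM2 (0.42 ± 0.07, edgeR adjusted p = 9.66e-06), though with limma on log2(FPKM + 1) the rise was 0.28 and not called. In GENCODE 29, 26.2% of the exonic bases of ARHGDIA are shared with a gene on the other strand. ARHGDIG had 1 count in all. The genes with the pattern most like ARHGDIB were RFC2, RPL4 and ZNF207 (Pearson r of 0.998, 0.998 and 0.997). RFC2 had group means of 151.7, 171.7, 90.6 and 122.0 CPM.

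The window of the most upstream ARHGDIB start in the table, at chr12:14951102-14951401 on the - strand, has a single AP-1 match, on the reverse strand. The windows of the other starts listed were the overlapping one, which holds the same match, and one with a PU-box match. The window is shown as that of the most abundant member, which was lower in LM2.
ARHGDIB: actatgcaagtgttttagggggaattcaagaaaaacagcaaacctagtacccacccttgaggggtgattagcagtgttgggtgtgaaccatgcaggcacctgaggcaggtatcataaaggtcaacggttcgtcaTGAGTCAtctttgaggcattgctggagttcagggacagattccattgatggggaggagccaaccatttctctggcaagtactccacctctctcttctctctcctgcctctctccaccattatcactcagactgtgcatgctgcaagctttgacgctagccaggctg

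RAC2 encodes the Rac GTPase of blood cells, which drives lamellipodia and the oxidative burst. It was at 83.0 and 82.8 FPKM in the parental control, 95.2 and 96.0 after knockdown, 66.9 and 67.3 in the LM2 control and 55.4 and 61.2 in LM2 shTAF7. Every MDA-MB-231 library was above every LM2 library. The line difference was -0.33 ± 0.07 with the control hairpin and -0.63 ± 0.07 with the TAF7 hairpin. In MDA-MB-231 the knockdown value of 0.22 ± 0.07 was called, but not without either control library (log2 fold change 0.22 for both), and in LM2 it was -0.07 ± 0.07 and not called. With limma on log2(FPKM + 1) or log2(FPKM + 0.1) the LM2 value was -0.20 and was called lower, while the MDA-MB-231 value (0.20 and 0.21) was not called. RAC2 was above RAC1, the Rac of nearly all cells, in FPKM in all libraries. It held 56.9% to 59.3% of the Rac FPKM in MDA-MB-231, 51.1% to 51.3% in the LM2 control and 43.1% to 45.0% in LM2 shTAF7. In CPM, which has no length term, RAC1 was above RAC2 in every group. RAC1 was at 397.6 and RAC2 at 206.3 CPM in the parental control, and at 453.5 and 155.5 CPM in LM2 shTAF7. The place of RAC2 above RAC1 therefore rests on the length term of the FPKM. RAC1 was at 46.8 and 52.8 FPKM in the parental control and 47.6 and 48.1 in the LM2 control (-0.09 ± 0.07, edgeR adjusted p = 0.28). RAC1 rose with knockdown in LM2 (0.28 ± 0.07, edgeR adjusted p = 0.00118), but was at 0.15 and not called with limma on log2(FPKM + 1). RAC3 was higher in LM2 with both hairpins (0.64 ± 0.11 and 1.01 ± 0.10, edgeR adjusted p = 1.29e-06 and 7.02e-12). EEF1A2, MED30 and PDLIM4 were most like RAC2 (Pearson r of 0.996, 0.995 and 0.995).

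WAS, which encodes the Wiskott-Aldrich syndrome protein that activates Arp2/3 in blood cells, had 8 and 7 counts in the parental control, 1 and 12 after knockdown, 9 and 3 in the LM2 control and 6 and 8 in LM2 shTAF7. The groups overlapped, the gene did not pass the filter on low counts, and a difference was not detectable at this depth. WASL, which encodes the widely expressed N-WASP, was at 15.8 to 20.4 FPKM in the 8 libraries and was called in 1 comparison, higher in LM2 with the TAF7 hairpin (0.29 ± 0.07, edgeR adjusted p = 0.00065), but not without MDA-MB-231 shTAF7 replicate 3 (0.19).

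**Figure D2:**
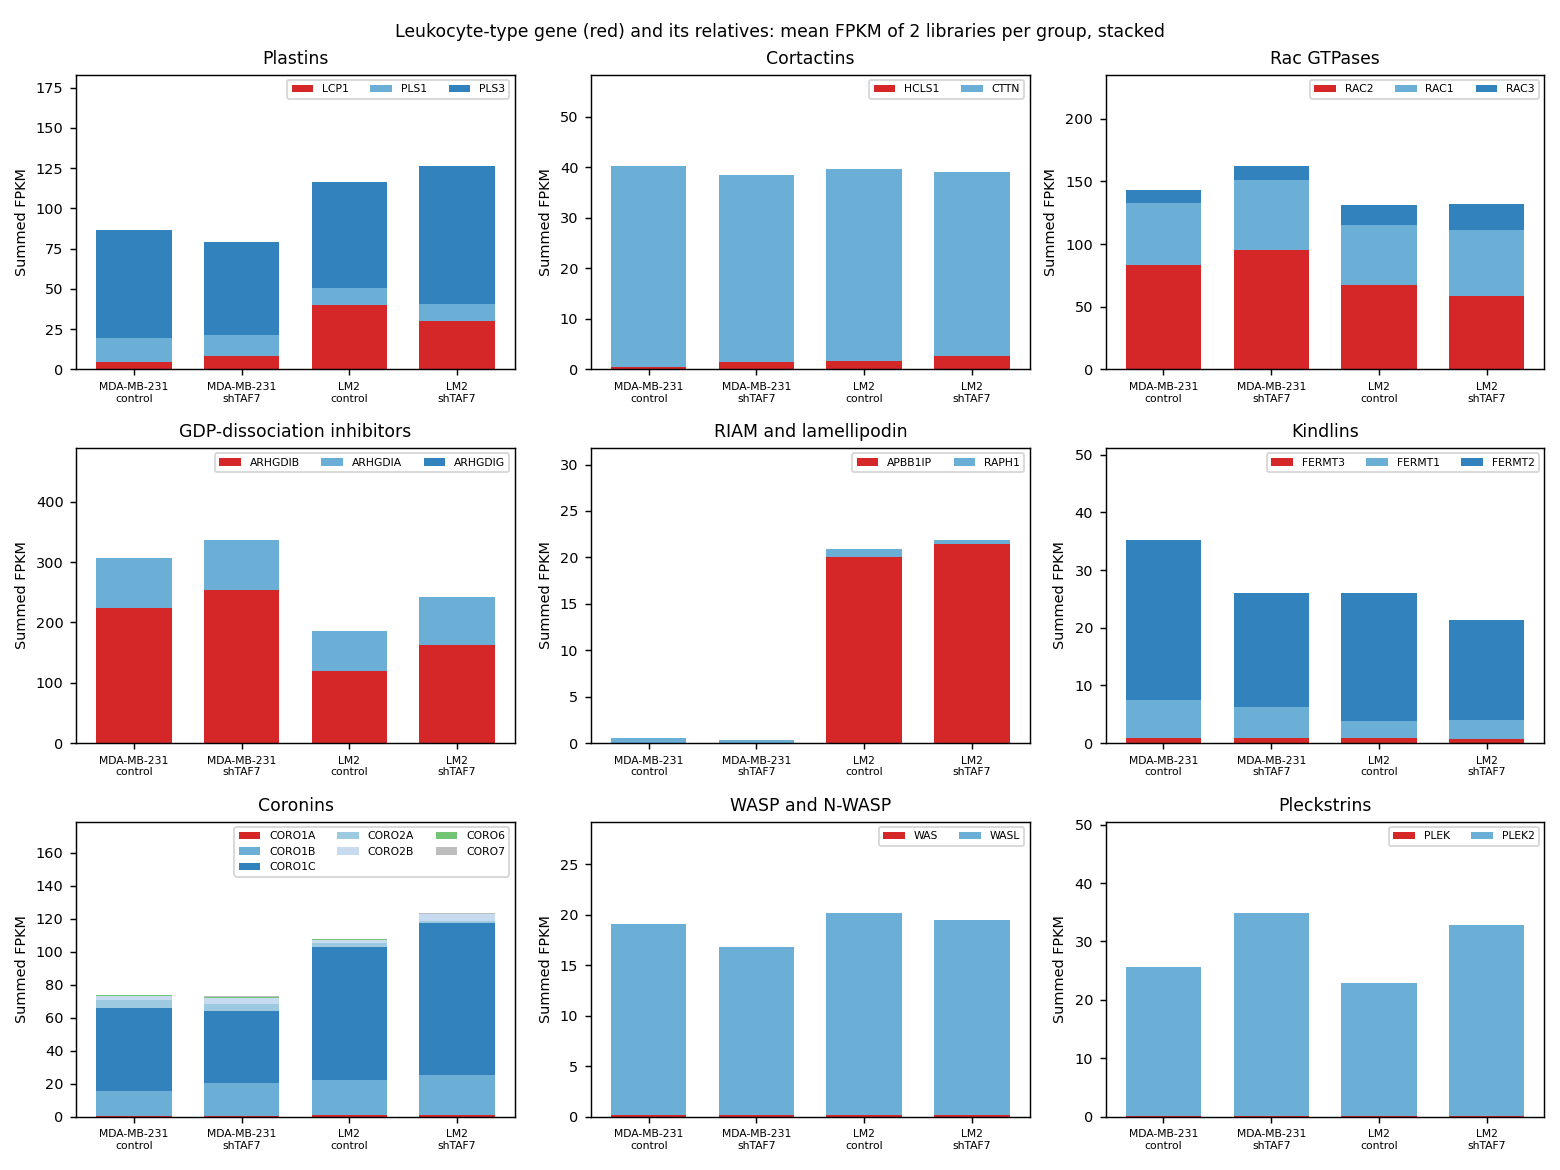
Mean FPKM of 2 libraries per group (vertical axes, stacked from 0, differing between panels) of each leukocyte-type gene in red and its relatives in other colours. ARHGDIB and RAC2 form much of the summed FPKM of their families in all 4 groups, though RAC1 was above RAC2 in CPM. The share of RAC2 is uncertain, as it rests on the length used for RAC1. APBB1IP forms nearly all of its pair in LM2 (the level of RAPH1 is uncertain). LCP1 forms up to 35.0% of the plastins in an LM2 control library, whereas CORO1A, WAS, PLEK, HCLS1 and FERMT3 stay under 7% of theirs.

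Side by side, 4 of the 7 members tested were called higher and 0 lower with knockdown in MDA-MB-231 (LCP1, HCLS1, RAC2 and ARHGDIB), where 25.6% of all genes tested were called and 12.6% were called higher. Only LCP1 and HCLS1 were called without either control library or with limma on log2(FPKM + 1). In LM2, 3 were called higher (HCLS1, ARHGDIB and APBB1IP) and 1 lower (LCP1), against 41.3% of all genes, 21.8% higher and 19.4% lower. Between the control libraries of the lines, 4 were called higher in LM2 (APBB1IP, LCP1, HCLS1 and CORO1A) and 2 lower (ARHGDIB and RAC2), against 64.4% of all genes, 32.2% higher and 32.1% lower. With the TAF7 hairpin 3 were called higher and 2 lower, against 62.5%, with 30.9% higher and 31.6% lower. The difference between the knockdown effects was called for 4, 1 higher and 3 lower, against 25.8%, with 13.9% higher and 11.9% lower. Since these values may have chosen the genes, nothing is read from the counts. APBB1IP passed the filter on low counts only through LM2, where it was high, so its calls between the lines carry no weight. The knockdown comparisons share their control libraries with the comparison of the control lines, whereas the 2 line comparisons have no library in common. The median log2 fold change of the 7 was 0.51, 0.04, 0.82 and 0.35 in the first 4 comparisons, beside medians of 0.01, -0.02, 0.02 and 0.00 over all genes. Without APBB1IP, whose fitted values in 3 of these rest on almost no parental reads, the medians of the other 6 were 0.36, -0.02, 0.30 and -0.07.

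**Figure D3:**
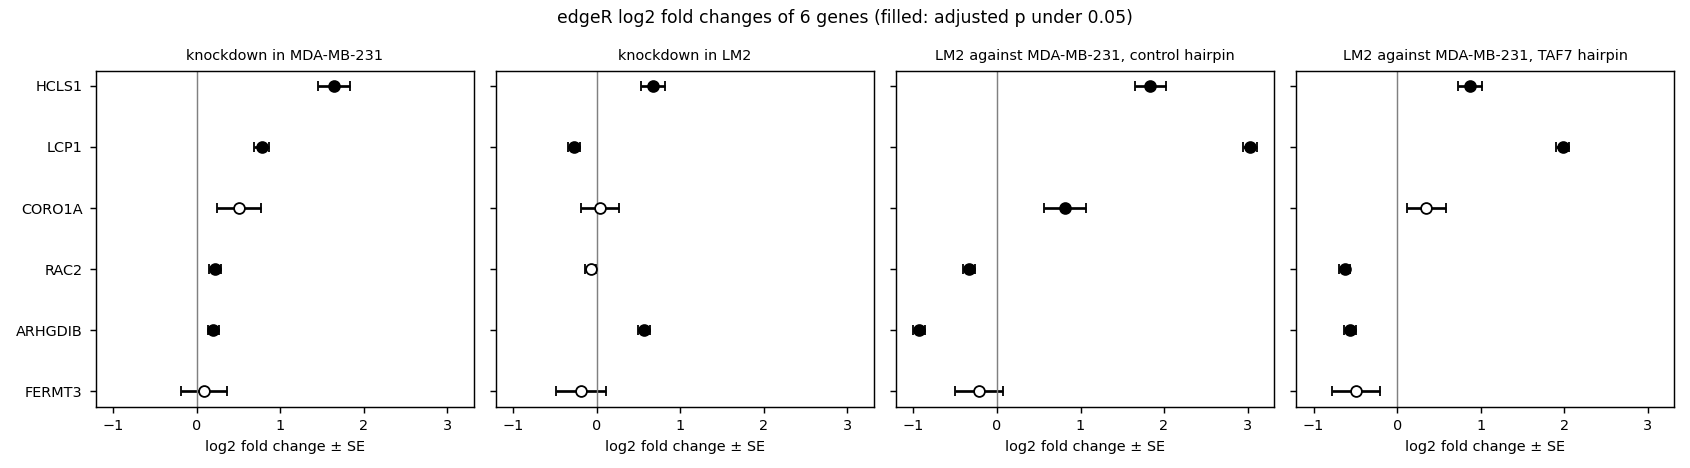
edgeR log2 fold change (horizontal axes, shared) with its standard error for 6 genes in 4 comparisons with n = 2 libraries per group, filled where the adjusted p was under 0.05. APBB1IP is left out because MDA-MB-231 had almost no reads of it. LCP1 lies at 3.03 between the control lines and at -0.27 with knockdown in LM2, and ARHGDIB and RAC2 lie below 0 in both line comparisons.

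The 18 widely expressed relatives were listed by family, with earlier results of these data known, and 17 were tested. With knockdown in LM2, 10 rose, 2 fell and 5 were not called (median log2 fold change 0.28, against -0.02 over all genes, of which 21.8% were called higher and 19.4% lower). The 10 included PLS3, CORO1C, ARHGDIA, RAC1, RAC3 and PLEK2. With limma on log2(FPKM + 1), which uses no TMM factor, 6 rose and 2 fell. Without LM2 shTAF7 replicate 3, 8 rose and 1 fell. In MDA-MB-231, where 25.6% of all genes were called, 3 rose and 5 fell, but 2 fell without MDA-MB-231 control replicate 2, control replicate 3 or shTAF7 replicate 3. Between the control lines 4 were higher in LM2 and 6 lower, where 64.4% of all genes were called. CORO2A was the most reduced of those with at least 5 CPM (-1.30 ± 0.11, edgeR adjusted p = 3.69e-14), and CORO2B rose with knockdown in both lines (0.80 ± 0.14 and 0.83 ± 0.13, edgeR adjusted p = 1.97e-05 and 1.44e-06). The interaction of line and knockdown was called for 4 relatives (7 without MDA-MB-231 shTAF7 replicate 2), against 25.8% of all genes, and all 4 had the higher effect in LM2: PLS3, CORO1C, ARHGDIA and FERMT1. That of ARHGDIA was not called with limma on log2(FPKM + 1) (0.28).

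The machinery on which these genes act was present in both lines. The counts between the control lines that follow stand beside 64.4% of all genes called, 32.2% higher and 32.1% lower. All 10 Arp2/3 subunit genes listed were tested. With the control hairpin 2 were higher in LM2 (ARPC4 at 0.62 ± 0.07 and ARPC3, outside the naming rule, at 0.57 ± 0.07) and 6 lower, among them ACTR2 (-0.62 ± 0.07) and ARPC5L (-0.57 ± 0.07), with edgeR adjusted p-values of these 4 of at most 1.35e-09 and a list median of -0.21. ARPC3 and ARPC4 rose with knockdown in both lines as well (0.53 ± 0.07 and 0.50 ± 0.07 for ARPC3). For ARPC4 the call in MDA-MB-231 was lost without control replicate 2 (0.23), control replicate 3 (0.23) or shTAF7 replicate 2 (0.19). Of 13 tested WAVE complex and WIP family genes, 2 were higher and 5 lower in LM2 with the control hairpin (median -0.31). The WAVE subunit BRK1 was among the higher (0.90 ± 0.07, edgeR adjusted p = 3.09e-15) and CYFIP1 (-0.83 ± 0.07, edgeR adjusted p = 1.88e-14) and NCKAP1 (-0.67 ± 0.07, edgeR adjusted p = 4.28e-12) among the lower. Of 15 tested talin and integrin-activation genes, 8 were higher and 5 lower (median 0.28), with LIMS2, a partner of integrin-linked kinase, at 1.89 ± 0.16 and ITGB3, the beta-3 integrin, at -0.74 ± 0.15 (edgeR adjusted p = 2.04e-14 and 4.33e-05). For ITGB3, 51.6% of the exonic bases are shared with another gene in GENCODE 29. TLN1, talin-1, and VCL, vinculin, named after their values were seen, were at 0.50 ± 0.07 and 0.47 ± 0.07 (edgeR adjusted p = 6.11e-08 and 1.63e-07). ITGB2, the beta subunit of leukocyte integrins, was at 0.82 and 0.64 FPKM in the parental control and at 2.76 and 2.97 in the LM2 control (1.94 ± 0.15, edgeR adjusted p = 3.24e-16), and it fell with knockdown in LM2 (-1.03 ± 0.13, edgeR adjusted p = 1.54e-08). The alpha subunit ITGAL had no reads, and ITGAM had at most 5 counts in a library.

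The knockdown counts of these lists rested on single libraries. In MDA-MB-231, where 25.6% of all genes were called, 3 rose and 2 fell in the Arp2/3 list, 2 and 5 in the WAVE list, and 1 and 3 in the talin list. Leaving out each library in turn gave 2 to 3 and 0 to 3, 1 to 2 and 2 to 5, and 0 to 1 and 0 to 5. The moves of over 1.5 times came from each of the 4 MDA-MB-231 libraries. In LM2, where 41.3% of all genes were called, 3 rose and 1 fell, 2 and 3, and 4 and 5 in the same order, with 3 to 5 and 0 to 1, 1 to 2 and 0 to 3, and 3 to 4 and 2 to 5 when libraries were left out, where each LM2 library and, for Arp2/3, both MDA-MB-231 control libraries moved a count so far. ILK and ARPC1B, named after their values were seen, were read at no more than 0.39 FPKM. In GENCODE 29, 78.5% and 32.4% of their exonic bases are shared with other genes, so their levels are uncertain.

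Of 26 other actin and GTPase regulators of blood cells, chosen by lineage, 15 were tested and 11 had too few reads. With the control hairpin, where 64.4% of all genes were called, 5 were higher in LM2 and 4 lower (3 and 4 without MDA-MB-231 control replicate 2 or LM2 control replicate 2), and with the TAF7 hairpin 4 were higher and 7 lower (2 and 6 without LM2 shTAF7 replicate 2). DOCK2, an activator of Rac in lymphocytes, had 19 and 20 counts in the parental control and 192 and 201 in the LM2 control (3.36 ± 0.22, edgeR adjusted p = 4.18e-18). VAV1, another exchange factor, had 54 and 37 counts against 263 and 255 (2.55 ± 0.17, edgeR adjusted p = 5.09e-18). GMFG, glia maturation factor gamma, which takes Arp2/3 branches apart, went the other way, from 32.5 and 33.4 FPKM to 1.55 and 2.50 (-4.05 ± 0.14, edgeR adjusted p = 4.15e-29). GMFG also fell with knockdown in LM2 (-1.18 ± 0.27, edgeR adjusted p = 0.000368) and rose in MDA-MB-231 (0.28 ± 0.09, edgeR adjusted p = 0.0193). In LM2 it was -0.80 and not called without LM2 control replicate 3. In MDA-MB-231 it was not called without control replicate 2 (0.25), control replicate 3 (0.30) or shTAF7 replicate 3 (0.25). The exchange factor DEF6 was lower in the LM2 control (-0.74 ± 0.10, edgeR adjusted p = 4.81e-09) and rose with knockdown in LM2 (0.76 ± 0.10, edgeR adjusted p = 1.36e-08). ELMO1, which averaged under 5 CPM and was named after its values were seen, had 124 and 89 counts in the parental control. It had 8 and 8 in the LM2 control. With knockdown, 2 rose and 2 fell in MDA-MB-231 (0 to 3 and 0 to 2 when each library was left out, moved by over 1.5 times by each MDA-MB-231 library and by LM2 control replicate 2). In LM2, 3 rose and 5 fell (2 to 3 and 1 to 5, moved so far by LM2 control replicate 3 and LM2 shTAF7 replicate 3). The share of all genes called was 25.6% with knockdown in MDA-MB-231 and 41.3% in LM2. Between the lines with the TAF7 hairpin it was 62.5%.

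**Figure D4:**
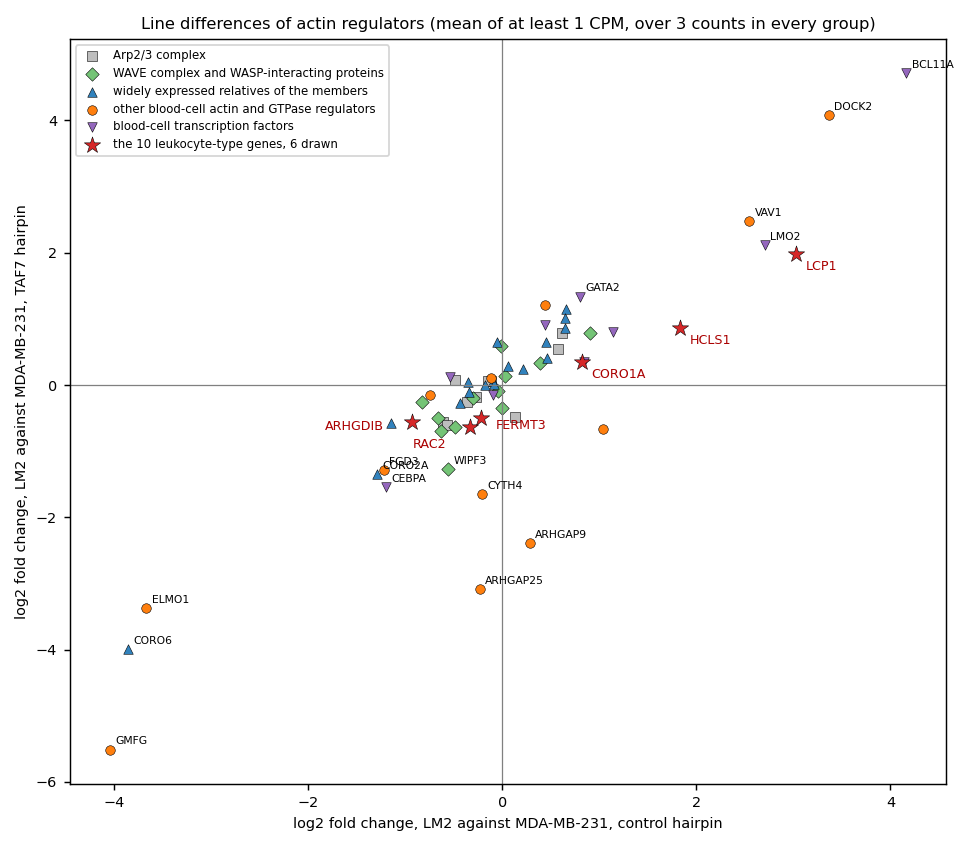
edgeR log2 fold change of LM2 against MDA-MB-231 with the control hairpin (horizontal axis) and with the TAF7 hairpin (vertical axis), which share no library, for genes of the lists averaging 1 CPM or more and with over 3 counts in every group. DOCK2, VAV1, LCP1 and HCLS1 are among the genes at the upper right, and GMFG, ELMO1 and CORO6 among those at the lower left. Most Arp2/3 and WAVE genes lie within 1 unit of 0. The talin list and the marker lists of leukocytes and of the breast cancer line are not drawn.

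Transcription factors of blood cells were listed as the regulators best known for driving such genes. Of 26, 12 were tested, and 7 were higher and 2 lower in LM2 with either hairpin, where 64.4% of all genes were called with the control hairpin and 62.5% with the TAF7 hairpin. The count of those lower was 1 without MDA-MB-231 control replicate 3. GATA2 was at 3.42 and 3.31 FPKM in the parental control and at 5.80 and 6.13 in the LM2 control (0.80 ± 0.10, edgeR adjusted p = 1.19e-09). RUNX2 was at 4.05 and 4.29 against 7.82 and 7.37 FPKM (0.84 ± 0.08, edgeR adjusted p = 2.99e-12), and it fell with knockdown in LM2 (-0.83 ± 0.08, edgeR adjusted p = 2.98e-11). LEF1 was also higher in LM2 (1.14 ± 0.13, edgeR adjusted p = 6.1e-11). The following factors averaged under 5 CPM and were named after their values were seen. The 2 lower in LM2 with the control hairpin were LYL1, with 93 and 76 counts in the parental control and 0 and 1 in the LM2 control, and CEBPA, with 41 and 58 against 21 and 21 counts. In GENCODE 29, 43.4% of the exonic bases of CEBPA are shared with other genes. LMO2 had 24 and 18 against 151 and 117 counts, and BCL11A 8 and 5 against 113 and 118. FLI1 had 0 counts in all 4 MDA-MB-231 libraries, 29 and 22 in the LM2 control and 14 and 16 in LM2 shTAF7. SPI1, which encodes the myeloid factor PU.1, had at most 2 counts in any library. With knockdown 1 rose and 1 fell in MDA-MB-231, where 25.6% of all genes were called, and 2 and 2 in LM2, where 41.3% were. These counts ran from 0 to 1 and 0 to 1, and from 1 to 3 and 1 to 2, when each library was left out. They moved by over 1.5 times without MDA-MB-231 control replicate 2 or 3 or shTAF7 replicate 3, and, in LM2, without any LM2 library or either MDA-MB-231 control library.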

How the data were processed

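RNA from 8 libraries (4 groups of 2) was sequenced after mRNA enrichment, per the labels' protocols. The authors deposited gene counts and FPKM values for 61552 genes. STAR 2.7.10a and hg19 are named in the submitters' processing notes, and no source names the counting program, its strand setting or the annotation (not given in the sources used). The 10 genes and all gene lists were chosen with earlier results of these data known. Deposited counts were fitted with edgeR 4.0.16 in R 4.3.3 (filterByExpr, TMM scaling, quasi-likelihood test on group means of all 8 libraries, 4 residual degrees of freedom), which left 15923 genes. P-values were adjusted over them by the method of Benjamini and Hochberg, and an adjusted p under 0.05 was called. A fold against a group at 0 used a floor of 3 counts per library. Low counts limit the precision of genes with few reads, and counting intervals cover counting error only.

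Named genes were the members, TAF7, every relative with a mean of at least 5 CPM, up to 4 called genes per other list by size of change with the same minimum of 5 CPM, and the 3 genes most like each member of at least 5 CPM. Alternatives were DESeq2 1.42.0, limma 3.58.1 on log2(FPKM + 1) and log2(FPKM + 0.1) with a minimum mean of 0.1 FPKM, other size factors, no filter on low counts, a replicate block, the libraries of 1 comparison alone and each library left out. The fits were tested on simulated data.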

Additional observations from a re-analysis of the deposited data

Results flagged for a closer look

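For 4 of the 10 genes the difference between the knockdown effects was called in the interaction term of the edgeR fit. As the genes were chosen with results known, these values are a description. TAF7 itself fell less in LM2 than in MDA-MB-231, so the knockdowns compared were of unequal depth. The effect in LM2 minus that in MDA-MB-231 was -1.05 ± 0.11 (standard error) on the log2 scale for LCP1, whose libraries moved up in MDA-MB-231 and down in LM2. It was -0.97 ± 0.24 for HCLS1, which was higher after knockdown in both lines, and this was -0.38 and not called with limma on log2(FPKM + 1). It was -0.29 ± 0.10 for RAC2, and this call was lost without either MDA-MB-231 control library (difference of -0.28 for both), without LM2 control replicate 2 (-0.29) or 3 (-0.27) and without LM2 shTAF7 replicate 2 (-0.19), and with no filter on low counts (-0.26). It was 0.37 ± 0.10 for ARHGDIB, which was called higher in both lines, and that difference was not called with limma on log2(FPKM + 1) or log2(FPKM + 0.1) (0.26 for both).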

How the results depend on the processing

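Of 488 values of the 10 genes under the alternatives, 451 kept their direction and side of the threshold, 24 lost a call, 2 gained one (RAC2 with knockdown in LM2, with both limma fits) and 11 changed sign. In MDA-MB-231, limma on log2(FPKM + 1) or log2(FPKM + 0.1) called 2 members with knockdown in place of 4, and 2244 or 2168 genes in place of 4070. Leaving out each library gave 2 to 4 members and 2031 to 4408 genes, with 2031 without MDA-MB-231 control replicate 2, 2279 without control replicate 3 and 2362 without shTAF7 replicate 3. For the difference between the knockdown effects, limma on log2(FPKM + 1) called 2 members in place of 4, and the limma fits called 2315 or 2235 genes in place of 4113. The cause was not tested. Without TMM, limma on log2(FPKM + 1) split the LM2 knockdown calls into 1670 higher and 3309 lower (3478 and 3092 with edgeR), and DESeq2 into 2950 and 1860. The split of the difference was 789 and 1526 with limma (2221 and 1892 with edgeR).

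No sign change concerned a called value. FERMT3 turned to -0.18 or -0.09 with knockdown in MDA-MB-231 without control or shTAF7 replicate 3, to 0.30 or 0.02 in LM2 without control or shTAF7 replicate 2, to 0.09 or 0.13 between the control lines without MDA-MB-231 control replicate 2 or LM2 control replicate 3, and to 0.22 for the difference without LM2 control replicate 2. With knockdown in LM2, CORO1A turned to -0.037 and -0.078 with limma and to -0.012 without LM2 shTAF7 replicate 2, which turned RAC2 to 0.017. With libraries left out, these values ran from their changed sign to 0.41, -0.55, -0.72 and -0.62 for FERMT3 (in the order above), 0.11 for CORO1A and -0.15 for RAC2. Same-numbered libraries did not deviate together (correlations of -0.0871 to 0.0384). This cannot show whether libraries of the same number were prepared together. A replicate block gave 4053 genes with knockdown in MDA-MB-231 and changed no member count. Reads limit LSP1, PLEK and WAS, which were not tested.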
